A study of Mus musculus with 6 samples.

Results

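The interferon-induced GTPases described here were 10 genes of mouse liver: the guanylate-binding protein genes Gbp2, Gbp3, Gbp6, Gbp7, Gbp8 and Gbp9, and the immunity-related GTPase genes Igtp, Irgm1, Irgm2 and Iigp1. They were found by gene symbol, and each of the 10 matched 1 of the 23282 rows of the count files. The 10 names were selected on the measured counts of these same libraries, with the difference between the groups known, so their levels and fold changes are given as a description with no test. The study compared livers of mice dosed with atractylodin, a polyacetylene compound of Atractylodes rhizomes, with livers of mice dosed with vehicle, all on a high-fat diet that gives fatty liver. Male C57BL/6N mice (C57BL/6 in the sample labels) started the diet at 8 weeks of age and ate it for 12 weeks. After the first 8 weeks on it they received either atractylodin at 10 mg/kg or vehicle by mouth on 5 days a week for 4 weeks. The groups were 3 atractylodin and 3 vehicle libraries of whole-liver RNA, made with QuantSeq, a kit that reads a short tag near the 3′ end of each transcript. The high-fat diet was shared by both groups, and mice on a normal diet were not analysed here. The labels do not say that each library came from its own animal, and the p-values below reflect only how much these libraries vary, which may be technical.

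Guanylate-binding proteins (GBPs) and immunity-related GTPases (IRGs) are GTP-hydrolysing proteins that mouse cells make in quantity after interferon-γ and, for many of them, after type I interferon. Interferon-γ acts through its receptor and the JAK kinases, and its target genes often carry GAS elements or ISRE elements, with ISRE elements bound by IRF1 and related factors. The proteins gather on vacuoles that hold bacteria or parasites and help to break them open, and in mice the regulatory IRGs Irgm1, Irgm2 and Igtp (also called Irgm3) keep effector IRGs such as Iigp1 (Irga6) off the cell's own membranes. Iigp1 is known to be made in mouse liver without infection, and Igtp was described on lipid droplets in mouse dendritic cells.

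The members lie on 4 chromosomes of the mouse genome, with Irgm1 apart from the other chromosome 11 members. On GRCm38, the build also called mm10, the GENCODE M21 annotation puts Gbp7 at chr3:142530342-142550149, Gbp3 at chr3:142560026-142573209 and Gbp2 at chr3:142620602-142638008, all on the plus strand. Gbp8 at chr5:105014150-105139540, Gbp9 at chr5:105077630-105139539 and Gbp6 at chr5:105270702-105293698 lie on the minus strand. Igtp at chr11:58199556-58207591 and Irgm2 at chr11:58199618-58222782 overlap each other on the plus strand, and Irgm1 lies at chr11:48861968-48871683 on the minus strand. The place of Iigp1 is given with its values. All 10 are annotated as protein-coding. Gbp6 overlaps Gm43302 and Gbp7 overlaps Gm43802 on the same strand, and Gbp2 overlaps Mir6381 on the opposite strand.

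The promoters are shown because the binding letters of the interferon factors are not read from the counts. The genes were named as interferon-induced, and such genes often carry these letters, so the matches are no independent finding about the choice. The RefSeq promoter table for GRCm38.p6, which runs from 250 bases before to 50 bases after each annotated start, held an entry for 6 of the 10 members: Gbp2, Gbp3, Gbp7, Igtp, Irgm1 and Irgm2. Gbp6, Gbp8, Gbp9 and Iigp1 are named only. The motifs searched, on both strands, were the ISRE core, GAAA followed by any 2 bases and a second GAAA, and the GAS element TTCNNNGAA, where N is any base. No ISRE match overlapped a GAS match in the sequences printed. Each line below runs 5′ to 3′ on the gene's own strand, with motif matches in capitals.
Igtp: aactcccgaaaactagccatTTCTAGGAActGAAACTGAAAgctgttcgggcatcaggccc
Irgm2: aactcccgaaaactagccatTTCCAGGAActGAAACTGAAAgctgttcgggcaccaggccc
Irgm1: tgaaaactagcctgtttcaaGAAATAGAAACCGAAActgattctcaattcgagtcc
Gbp7: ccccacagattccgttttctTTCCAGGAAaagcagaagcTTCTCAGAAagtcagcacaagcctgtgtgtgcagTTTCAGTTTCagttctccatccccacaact
Gbp2: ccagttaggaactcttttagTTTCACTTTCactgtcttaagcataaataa
Gbp3: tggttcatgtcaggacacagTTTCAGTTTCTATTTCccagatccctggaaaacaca

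The Igtp stretch is chr11:58199491-58199551 on the plus strand, and its GAS match lies 45 to 37 bases before the annotated start, followed by an ISRE core 34 to 25 bases before it. The Irgm2 stretch is chr11:58214882-58214942 on the plus strand and carries the same pair in the same order, the GAS match 75 to 67 and the ISRE core 64 to 55 bases before the start. This RefSeq start of Irgm2 lies inside the GENCODE span given above and past the end of Igtp. Aligned to each other, the Igtp and Irgm2 windows were identical in 244 of 270 columns (90.4%). The Irgm1 stretch, chr11:48871415-48871470 on the minus strand, holds a pair of overlapping ISRE cores 30 to 21 and 24 to 15 bases before the start and no GAS match in the window. The Gbp7 stretch, chr3:142530210-142530312 on the plus strand, has GAS matches 106 to 98 and 87 to 79 bases before the start and an ISRE core, read on the opposite strand, 53 to 44 bases before it. In the Gbp2 stretch, chr3:142620584-142620633, the only match is an ISRE core on the opposite strand, 59 to 50 bases before the start. The Gbp3 stretch, chr3:142559979-142560034, has overlapping ISRE cores on the opposite strand, 45 to 36 and 39 to 30 bases before the start, and the window at the second listed start of Gbp3 held neither motif.

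All 6 members with a searched window thus held an ISRE core, whereas 3.44% of the 32851 promoter windows in the table did. A GAS match was found in 3 of the 6 (Gbp7, Igtp and Irgm2), against 8.3% of all windows, and the same 3 held both motifs, against 0.454% of all windows. Members were counted by gene and the shares by window, and the second Gbp3 window held neither motif. Igtp and Irgm2, whose windows are nearly alike, count as separate genes here. These matches describe letters and show no binding. Among the other interferon-inducible GTPase genes with a searched window, none of them on chromosome 18, 7 of 9 held an ISRE core and 5 of 9 held both motifs.

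**Figure D1:**
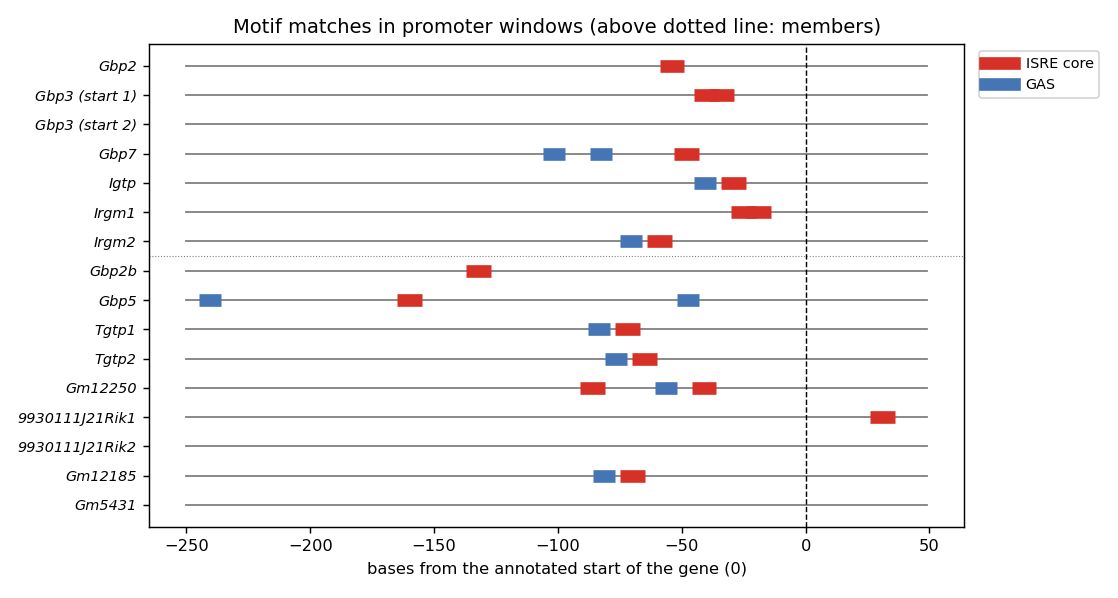
Matches to the ISRE core (red) and GAS (blue) in the RefSeq promoter windows of 6 members (7 windows, above the dotted line) and 9 other GTPase genes (below it); the x axis is the distance in bases from the annotated start at 0. In the 6 members every match lies between 106 and 15 bases before the start, and the second Gbp3 window is empty.

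The depth of the libraries limits the low members. Total counts were 9871762 to 12565393 in the atractylodin libraries, and 1831461 in vehicle 1, 11120089 in vehicle 2 and 12111553 in vehicle 3. One read in vehicle 1 therefore stands for 0.538 CPM (reads per 1e6, with library sizes scaled by the TMM method), against 0.0808 to 0.104 CPM in the other libraries, and the floor of 3 counts was 1.61 CPM in vehicle 1 against 0.243 to 0.313 CPM elsewhere. Principal components were computed on the most variable rows only. Vehicle 1 also stood apart from the other libraries on the first component, which held 56.0% of the variance of those rows. It lay at -39.5 against -1.27 and -0.47 for the other vehicle libraries and 12.6 to 15.2 for the atractylodin libraries. The filter on low counts left 12505 rows, with a median log2 fold change of -0.0015, and all 10 members passed it. Of these rows, 3.33% passed edgeR's quasi-likelihood test as lower with atractylodin and 3.92% as higher (7.25% in all), at a Benjamini-Hochberg adjusted p under 0.05. The 3 atractylodin libraries lay below all 3 vehicle libraries in 12.6% of rows. In these libraries the reads come from transcript ends, so CPM was not divided by length, and levels of different genes are on the CPM scale of 3′ tags.

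In the atractylodin livers 9 of the 10 GTPase genes had a lower estimate than in the vehicle livers, and the median log2 fold change of the 10 was -0.75. The lower estimates ran from -1.82 for Gbp6 to -0.18 for Gbp3, and Gbp8 alone had a higher one, 0.33. The edgeR call was met by 4 of the 10, namely Gbp6, Igtp, Irgm1 and Iigp1, all lower, beside 3.33% of all rows called lower and 7.25% called in either direction. The groups did not overlap, with atractylodin lower, for those 4 and for Gbp9, beside 12.6% of all rows. Both counts follow from how the genes were chosen and are given without a reading. Without vehicle 1 the call was met by Gbp6 and Igtp, without vehicle 2 by Igtp, without vehicle 3 by Gbp6, Gbp7 and Igtp, without atractylodin 1 or atractylodin 2 by Gbp6 and Igtp, and without atractylodin 3 by 6 of the 10. In DESeq2 the call was met by Gbp6, Igtp and Iigp1, and Irgm1 lost it there and in 5 of the 6 fits that left out a library. Whole liver was sampled, so fewer cells that make a transcript and less of it per cell cannot be told apart.

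**Figure D2:**
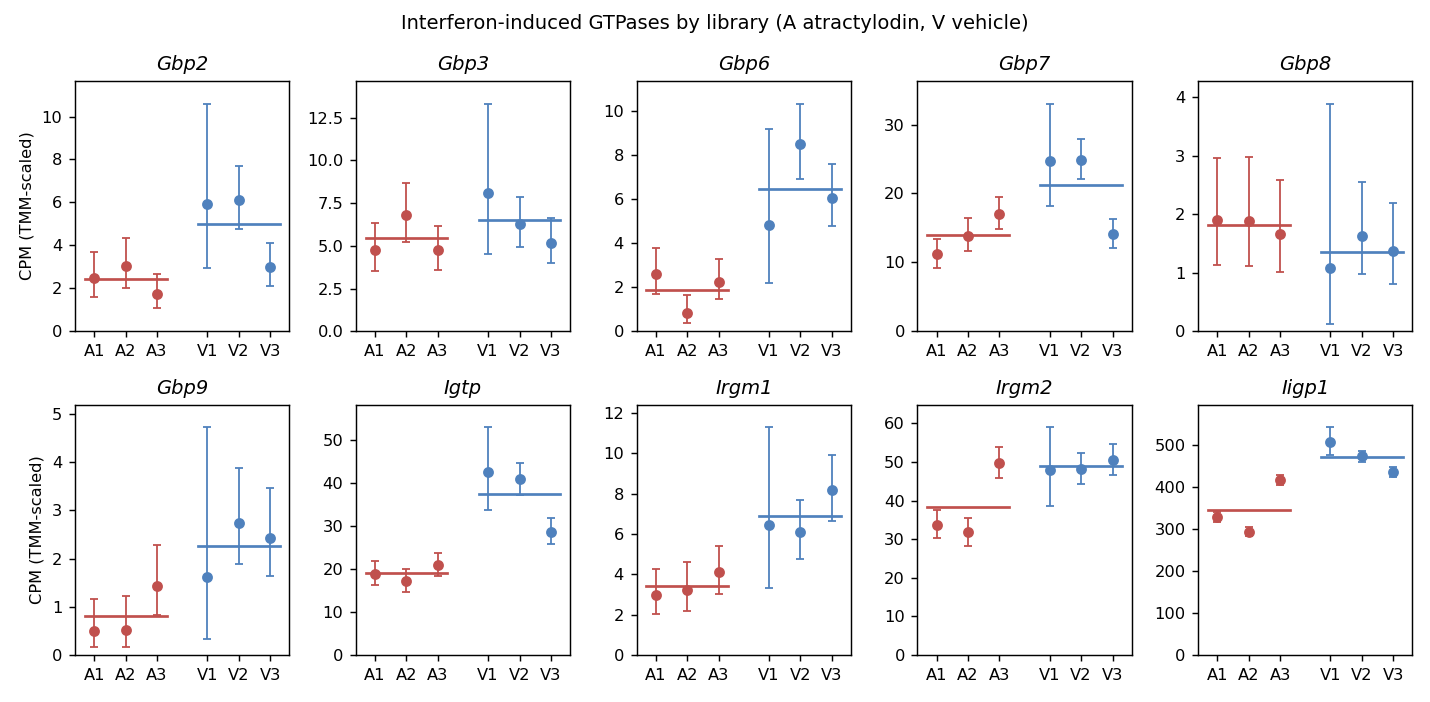
CPM (TMM-scaled, y axis) of the 10 GTPase genes in each library (x axis), atractylodin libraries A1 to A3 in red and vehicle libraries V1 to V3 in blue; points are libraries, bars 95% Poisson intervals of the count (counting error only) and lines group means. Vehicle 1 has the widest interval of the vehicle libraries for each gene, and Igtp, Irgm1, Iigp1, Gbp6 and Gbp9 show all atractylodin points below the vehicle points, while Gbp8 shows them all above.

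Iigp1, an effector IRG at chr18:60376027-60392634 on the plus strand, supplied most of the reads of the 10 genes. It had 329, 294 and 416 CPM in atractylodin libraries 1 to 3, against 509, 473 and 435 CPM in vehicle libraries 1 to 3, from counts of 2814 to 4986 with atractylodin and 945 to 5512 with vehicle. Its mean was 346 ± 63.1 CPM with atractylodin and 472 ± 36.8 CPM with vehicle (SD, n = 3 each), a log2 fold change of -0.45 ± 0.12 (SE; 95% interval -0.70 to -0.19). The groups did not overlap, and atractylodin 3 and vehicle 3 were the nearest libraries across the gap. Iigp1 made up 79.8 ± 0.92% of the summed CPM of the 10 genes in atractylodin livers and 77.7 ± 1.02% in vehicle livers. The sum of all 10 was 434 ± 76.9 CPM with atractylodin and 608 ± 49.3 CPM with vehicle, a ratio of 0.713, and without Iigp1 the sum of the other 9 was 87.3 ± 14.2 CPM against 136 ± 14.3 CPM, a ratio of 0.642.

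Of the regulatory IRGs, Igtp had the fold change with the smallest SE relative to its size. Its level was 18.9, 17.1 and 20.9 CPM in the atractylodin libraries, against 42.5, 41.0 and 28.7 CPM in the vehicle libraries. Every atractylodin library lay below the lowest vehicle library, vehicle 3, and the means were 19.0 ± 1.88 and 37.4 ± 7.57 CPM, a log2 fold change of -0.95 ± 0.16 (95% interval -1.28 to -0.61). Igtp met the call in the main fit and in all 12 alternative settings, the only member to do so. The settings reuse the libraries on which the genes were chosen, so this is a description and no test of Igtp.

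Irgm1 gave far fewer tags than Irgm2 in both groups. It had 2.99, 3.24 and 4.09 CPM in the atractylodin libraries, against 6.46, 6.10 and 8.17 CPM in the vehicle libraries, a log2 fold change of -1.02 ± 0.28 (95% interval -1.61 to -0.43), and the groups did not overlap. Irgm2 had 33.8, 31.7 and 49.8 CPM with atractylodin, against 47.9, 48.2 and 50.6 CPM with vehicle. Atractylodin 3 lay among the vehicle libraries for Irgm2, while atractylodin 1 and 2 lay below them, and the log2 fold change was -0.35 ± 0.15 (95% interval -0.67 to -0.02). Irgm2 and Igtp share most of their promoter letters and overlap in their GENCODE spans. Their summed level was 52.7, 48.9 and 70.7 CPM in the atractylodin libraries, against 90.4, 89.1 and 79.3 CPM in the vehicle libraries, with no overlap, so the gap of the pair did not depend on how reads were split between them. The last 300 bases of the annotated transcripts of Igtp, Irgm2 and Iigp1 shared no run of 50 bases with another gene, and Irgm1 shared 7.17% of such runs.

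The 3 GBP genes of chromosome 3 had smaller or more uneven gaps. Gbp7, whose product was linked to assembly of the NADPH oxidase in mouse macrophages, had 11.2, 13.9 and 17.0 CPM with atractylodin, against 24.8, 24.8 and 14.1 CPM with vehicle. Vehicle 3 lay among the atractylodin libraries, and the log2 fold change was -0.55 ± 0.23 (95% interval -1.04 to -0.05). Gbp2, a prenylated protein that coats pathogen vacuoles, had 2.49, 3.03 and 1.75 CPM with atractylodin, against 5.92, 6.10 and 2.99 CPM with vehicle, a log2 fold change of -0.99 ± 0.38 (95% interval -1.78 to -0.20). Again vehicle 3 was the low vehicle library and lay just under atractylodin 2. Gbp3 had 4.78, 6.79 and 4.76 CPM with atractylodin, against 8.07, 6.27 and 5.17 CPM with vehicle, and its log2 fold change of -0.18 ± 0.28 had a 95% interval of -0.76 to 0.40 that spans 0. Summed, these 3 genes had 21.9 ± 3.00 CPM in atractylodin livers and 32.7 ± 9.12 CPM in vehicle livers, and their 3′ ends shared no run with another gene.

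The GBP genes of chromosome 5 had low levels and held the extremes of fold change in both directions. Gbp6 had 2.59, 0.835 and 2.25 CPM with atractylodin, against 4.84, 8.50 and 6.06 CPM with vehicle, a log2 fold change of -1.82 ± 0.37 (95% interval -2.60 to -1.04) with no overlap. The last 300 bases of Gbp6 are identical in every run of 50 bases to runs of Gbp10, and some or all of the runs recur in the annotated transcripts of Gm43302 and Gbp9 too. Reads may have been split or exchanged among these genes, and the value of each alone is uncertain. Taken as a pair, which does not cover Gm43302 or Gbp9, Gbp6 and Gbp10 had 4.09, 0.940 and 3.26 CPM with atractylodin, against 8.07, 12.6 and 10.7 CPM with vehicle, again with no overlap. Gbp9 had 0.498, 0.522 and 1.42 CPM with atractylodin, against 1.61, 2.75 and 2.43 CPM with vehicle, from counts of 5, 5 and 17, against 3, 32 and 30. All atractylodin values of Gbp9 lay below the vehicle values, with a log2 fold change of -1.52 ± 0.53 (95% interval -2.63 to -0.41) that became -2.21 without atractylodin 3. Gbp9 in vehicle 1 rests on 3 counts, whose 95% Poisson interval spans all the atractylodin values.

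Gbp8 was the exception. It had 1.89, 1.88 and 1.67 CPM with atractylodin, against 1.08, 1.63 and 1.37 CPM with vehicle, from counts of 19, 18 and 20, against 2, 19 and 17. The atractylodin values lay just above the vehicle values, but the log2 fold change of 0.33 ± 0.47 had a 95% interval of -0.65 to 1.31, so no difference was detectable at this depth. Gbp8, Gbp9 and the non-member Gbp4 overlap on the minus strand of chromosome 5, and how reads of overlapping genes were counted is not given in the sources used here. The 3 members of chromosome 5 together had 4.52 ± 1.13 CPM in atractylodin livers and 10.1 ± 2.68 CPM in vehicle livers.

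The order of the libraries within a group was not the same for all members. Some of these ranks rest on small gaps or low counts. Gbp3 had 4.78 CPM in atractylodin 1 and 4.76 CPM in atractylodin 3, and Gbp8 had 18 to 20 counts in the atractylodin libraries. Whether the orders differ by more than counting error was not tested. Within the atractylodin group, atractylodin 3 was the highest library for 6 of the 10 genes, all 4 IRGs among them, and it was the lowest for 3, Gbp2, Gbp3 and Gbp8. Within the vehicle group, vehicle 2 was highest for 5 of the 10 and vehicle 3 lowest for 5, Gbp2, Gbp3, Gbp7, Igtp and Iigp1. A background was taken from 9659 of the 12505 tested rows, after a cut at 2 on the log2 CPM scale. Low members such as Gbp8 and Gbp9 fall under this cut, so the background covers better-measured genes. In those 9659 rows each library was highest in 31.3% to 35.3% and lowest in 29.7% to 36.9% within its group. The distance of each member from the mean profile of the 10, as the root-mean-square difference of centred log2 CPM over the 6 libraries, was smallest for Iigp1, 0.162, and Igtp, 0.167. It was 0.233 to 0.250 for Irgm2, Gbp7 and Irgm1, 0.373 to 0.588 for Gbp3, Gbp2, Gbp9 and Gbp8, and 0.680 for Gbp6.

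**Figure D3:**
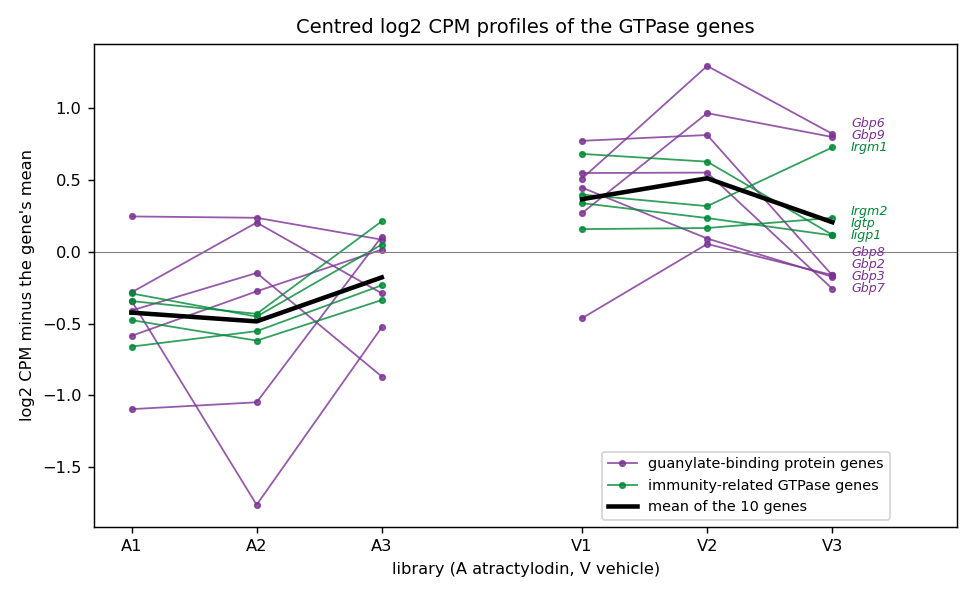
Centred log2 CPM (y axis, log2 CPM minus the gene's mean over 6 libraries) of the 10 GTPase genes in each library (x axis), GBP genes in purple, IRG genes in green and their mean in black. All 4 IRG lines lie higher in atractylodin 3 than in atractylodin 1 and 2, while the GBP lines diverge, with Gbp6 lowest in atractylodin 2.

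The genes with profiles nearest to the mean of the 10, among 9550 other rows with a mean log2 CPM of at least 2, were not on the interferon lists. Among the nearest were the long non-coding RNA BC051226 at a root-mean-square difference of 0.0429, Khk at 0.0552, Dut at 0.0813, 1110008P14Rik at 0.0898, Clic1 at 0.10, Alas2 at 0.109 and Col4a2 at 0.111, where the median over the 9550 rows was 0.430. Khk, the ketohexokinase that phosphorylates fructose, averaged 134 ± 18.7 CPM in atractylodin livers and 224 ± 14.0 CPM in vehicle livers, a log2 fold change of -0.74 ± 0.10. Dut encodes dUTPase, Alas2 the erythroid enzyme of haem synthesis and Col4a2 a basement membrane collagen. The ranking is a description over 6 libraries and has no test.

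Other interferon-inducible GTPases, not among the 10, were counted from a list of 20 genes, of which 19 were in the files under the symbols used and 14 could be tested. Of the 14, 3 fell with atractylodin and none rose (5 lower and 1 higher at an unadjusted p under 0.05), and 10 had a lower estimate, with a median log2 fold change of -0.53. Gbp10 fell to 0.867 ± 0.70 CPM in atractylodin livers, against 3.99 ± 0.70 CPM in vehicle livers (log2 fold change -2.22 ± 0.53, edgeR adjusted p = 0.0163). Gbp11 fell to 0.998 ± 0.28 CPM, against 3.02 ± 0.77 CPM (-1.66 ± 0.45, edgeR adjusted p = 0.0315). Tgtp1, an effector IRG of the Irgb6 type, fell to 1.42 ± 0.55 CPM, against 3.93 ± 0.32 CPM (-1.42 ± 0.41, edgeR adjusted p = 0.0430). None of the 3 calls survived the loss of vehicle 2 or of vehicle 3, and Gbp11 and Tgtp1 also missed the threshold in DESeq2. Without vehicle 2 or vehicle 3 the count was 0, without atractylodin 1 or atractylodin 2 it was 1, without vehicle 1 it was 2 and without atractylodin 3 it was 4.

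The tags of these 3 genes may also fit other genes. All runs of 50 bases in the last 300 of Gbp10 recur in Gbp6, those of Tgtp1 recur in its neighbour Tgtp2, and 54.6% of those of Gbp11 recur in other genes, Gbp8 and Gbp10 among them. Tgtp2 had a log2 fold change of -1.01 ± 0.47 (adjusted p = 0.220). Summed over the pair, Tgtp1 and Tgtp2 had 3.29, 1.78 and 4.09 CPM in the atractylodin libraries, against 8.61, 8.24 and 5.50 CPM in the vehicle libraries, with no overlap. The promoter window of Tgtp1 (chr11:48992294-48992354 on the minus strand) carries the GAS and ISRE core pair in the order seen at Igtp and Irgm2, shown here for comparison with them.
Tgtp1: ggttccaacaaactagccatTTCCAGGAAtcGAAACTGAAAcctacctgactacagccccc

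The remaining 11 of the 14 did not pass. Lower estimates were found for Mx1, a dynamin-like antiviral GTPase (-1.34, adjusted p = 0.191), Gm12250, also called Irgb10 (-1.15, adjusted p = 0.271), Mx2 (-0.60, adjusted p = 0.322), the giant GTPase genes Gvin1 (-0.45, adjusted p = 0.512) and Gm4070 (-0.38, adjusted p = 0.635), and Gbp4 (-0.03, adjusted p = 0.986). The estimate of Gbp4 was 0.03 in DESeq2. All runs of 50 bases in the last 300 of Gvin1 recur in Gm4070, and those of Gm4070 in Gvin1, so the value of each alone is uncertain. Higher estimates were found for Gbp2b (0.43, adjusted p = 0.712) and for all 3 relatives of Iigp1 that lie beside it on chromosome 18. Of those, Gm4951 (Ifgga2) had 150 ± 17.8 CPM in atractylodin livers and 137 ± 8.28 CPM in vehicle livers (0.13 ± 0.10, adjusted p = 0.500). F830016B08Rik (Ifgga4) had 33.6 ± 2.49 CPM, against 26.8 ± 3.00 CPM (0.29 ± 0.13, adjusted p = 0.206), and Gm4841 (Ifgga3) had a log2 fold change of 0.50 (adjusted p = 0.631). Whether Iigp1 differed from these neighbours in its response was not tested.

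**Figure D4:**
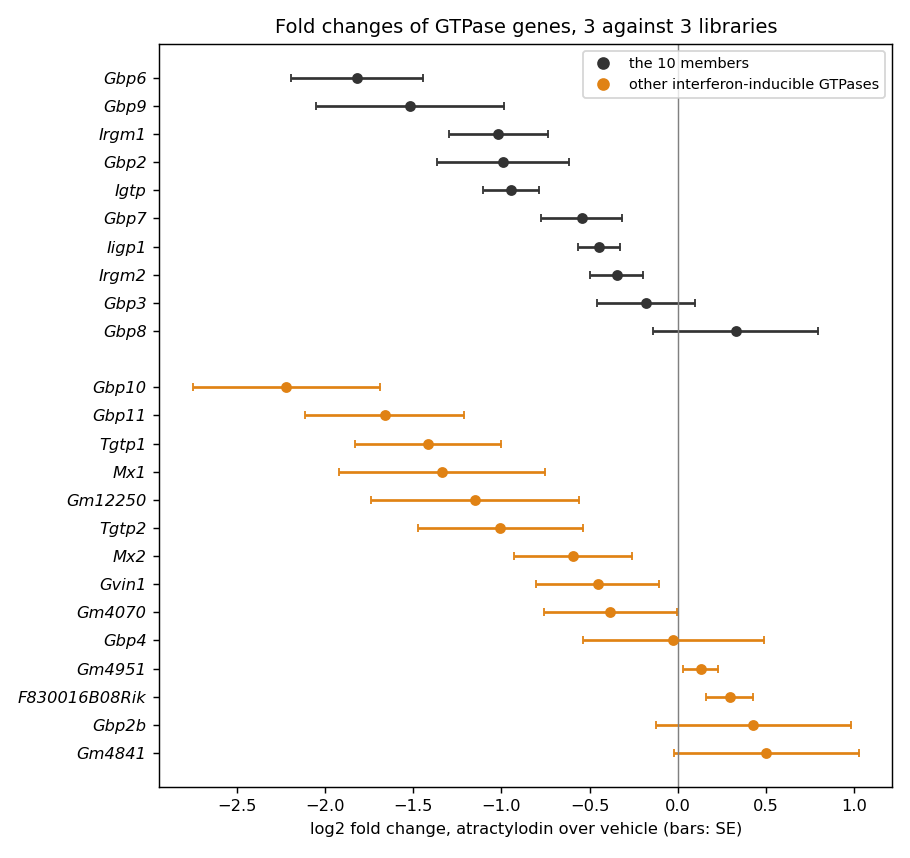
Log2 fold changes, atractylodin over vehicle (x axis), with SE bars, of the 10 members (dark, top) and of the 14 tested other interferon-inducible GTPase genes (orange, bottom), 3 against 3 libraries. Of the member points, 9 lie left of 0, and the orange points run from -2.22 for Gbp10 to 0.50 for Gm4841.

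Genes of interferon-γ signalling, from the ligand to factors and other targets, were counted next. Of 17 listed genes, 11 could be tested, and 2 fell with atractylodin while none rose. Of the genes that fell, Cxcl10, an interferon-induced chemokine, fell by 2.14 ± 0.50 on the log2 scale (adjusted p = 0.0153) and lost the call without vehicle 1, vehicle 2 or atractylodin 2 (adjusted p = 0.00173 to 0.104 over all 6 omissions of a library).

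Irf1, a transcription factor of the pathway, averaged 43.2 ± 12.4 CPM in atractylodin livers and 56.3 ± 8.56 CPM in vehicle livers, a log2 fold change of -0.37 ± 0.23 that did not pass (adjusted p = 0.416). The receptor chains did not pass either, with Ifngr1 at 13.9 ± 2.23 CPM, against 15.4 ± 2.71 CPM (adjusted p = 0.567), and Ifngr2 at 14.5 ± 1.97 CPM, against 19.1 ± 4.86 CPM (adjusted p = 0.352). Ifng itself, the ligand, had 1 count in all 6 libraries together, in vehicle 2, so its level was not measurable at this depth. Without vehicle 1, vehicle 2 or atractylodin 2, no gene of this list was called.

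Type I interferon genes, many of which share the ISRE with the GTPases, gave the largest count. Of 22 tested, 7 fell and none rose (11 lower and 1 higher at an unadjusted p under 0.05), and 20 had a lower estimate, with a median log2 fold change of -0.56. Isg15, the ubiquitin-like modifier, fell by 1.76 ± 0.19 on the log2 scale (edgeR adjusted p = 3.31e-05), Ifit3, an RNA-binding effector, by 1.68 ± 0.20 (adjusted p = 0.000104) and Oasl1 by 1.65 ± 0.24 (adjusted p = 0.000403), and these 3 calls held without any one library. Without vehicle 1 or vehicle 2, 4 of the 22 fell.

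Antigen processing genes, another group that interferon-γ induces, had 2 falls among 15 and a median of -0.32. Psmb9, an immunoproteasome subunit, fell to 14.4 ± 2.66 CPM, against 24.9 ± 3.14 CPM (-0.83 ± 0.17, edgeR adjusted p = 0.00564), and held without any one library. Tap1, the peptide transporter subunit, fell by 0.66 ± 0.18 (adjusted p = 0.0349), a call lost in DESeq2 and without vehicle 1, vehicle 2, atractylodin 1 or atractylodin 3.

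Among autophagy genes the calls were rises. The conjugation machinery and ubiquitin-binding partners that work with GBPs and IRGs on vacuoles had 3 rises and no fall among 13 (1 lower at an unadjusted p under 0.05), with a median of 0.13. Lower estimates were found for 5 of the 13, Atg5 (-0.22, adjusted p = 0.214) and Atg7 (-0.17, adjusted p = 0.454) with groups that did not overlap. Sqstm1, the receptor p62, rose to 457 ± 22.9 CPM in atractylodin livers, against 297 ± 15.1 CPM in vehicle livers (0.62 ± 0.09, edgeR adjusted p = 0.00053), and held without any one library. Map1lc3b rose by 0.35 ± 0.09 (adjusted p = 0.0283) and Gabarapl1 by 0.34 ± 0.09 (adjusted p = 0.0310), both LC3-family genes, and each lost the call when libraries were scaled by total counts and in 4 of the 6 fits that left out a library. Without vehicle 1, vehicle 3 or atractylodin 1, Sqstm1 was the only rise.

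Inflammasome and pyroptosis genes, downstream of GBPs in infected macrophages, gave no call among 7 tested in edgeR and none in DESeq2. At an unadjusted p under 0.05, 1 was lower and 0 higher, and the smallest p was that of Il18 (-0.56 ± 0.25, adjusted p = 0.213). Prenylation enzymes, which attach the lipid anchor of some GBPs, gave no call among 5 by either tool and 0 at an unadjusted p under 0.05, and the smallest p was that of Fntb (-0.65 ± 0.37, adjusted p = 0.324).

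**Figure D5:**
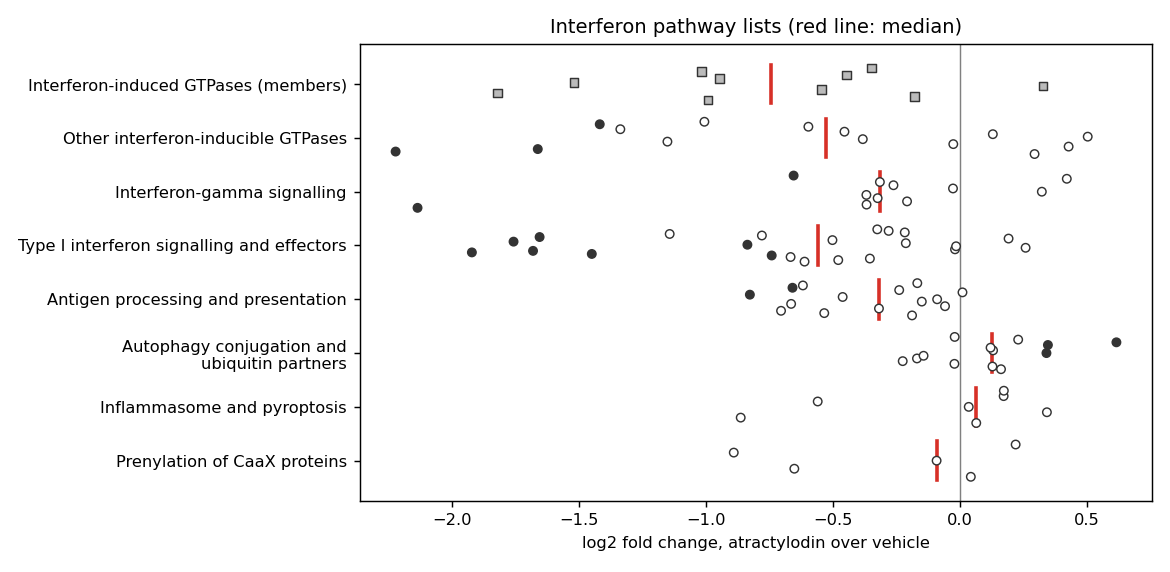
Log2 fold changes, atractylodin over vehicle (x axis), of the tested genes of each list (rows). Grey squares are the 10 members, filled circles other genes past an edgeR adjusted p of 0.05, open circles genes that did not pass, and red lines list medians, which run from -0.75 for the members to 0.13 for the autophagy list.

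Marker genes of the cell types of liver were read beside the members, as whole lists. The hepatocyte marker Alb had 52148 CPM in atractylodin livers and 54155 CPM in vehicle livers. Of 7 hepatocyte markers in the files, Hnf4a rose to 478 CPM, against 294 CPM (log2 fold change 0.71 ± 0.10, adjusted p = 0.000405), and 6 did not pass, Ttr among them at -0.23 ± 0.09 (adjusted p = 0.163). The summed hepatocyte list was 72568 to 81507 CPM in atractylodin libraries and 77563 to 85136 CPM in vehicle libraries. None of 12 macrophage and Kupffer cell markers passed in the main edgeR fit or DESeq2, although 3 were lower and 0 higher at an unadjusted p under 0.05. A lower estimate was found for 10 of the 12, with a median log2 fold change of -0.27. Without atractylodin 1, 2 of them were called lower, and with no filter 1 was. Their summed levels were 314 to 472 CPM in atractylodin libraries and 383 to 547 CPM in vehicle libraries, and Cd5l, the most abundant, was at 102 ± 25.6 and 124 ± 29.3 CPM (adjusted p = 0.577). Of 12 T and NK cell markers in the files, 3 could be tested and Themis, the most abundant, fell to 1.37 ± 1.04 CPM, against 6.47 ± 1.75 CPM (-2.28 ± 0.46, adjusted p = 0.00782). The summed level of that list was 3.76 to 10.5 CPM in atractylodin libraries and 8.07 to 17.0 CPM in vehicle libraries, Ncr1 was at 0 in all libraries, and Cd8a was at 0 in the atractylodin libraries and in vehicle 1. The summed B cell list was 0.399 to 1.67 CPM, against 1.37 to 3.23 CPM, with no gene tested. The cholangiocyte list, led by Sox9, was 21.7 to 28.0 CPM, against 41.6 to 51.7 CPM, and 2 of 3 tested fell, Sox9 and Spp1. Epcam, also tested, had a log2 fold change of 0.05 ± 0.55 (edgeR adjusted p = 0.969), and Krt7, Krt19 and Cldn7 were too low to test. None of the tested dendritic cell (4, led by Clec9a), neutrophil (3, led by S100a8) or stellate cell (6, led by Dcn) markers passed in edgeR or DESeq2, and 1 dendritic cell marker was higher at an unadjusted p under 0.05. Of 8 endothelial markers, led by Kdr, 1 fell and 1 rose (3 lower and 1 higher at an unadjusted p under 0.05). A lower estimate was found for 7 of the 8, with a median log2 fold change of -0.35. No endothelial marker was called without vehicle 1, vehicle 2, vehicle 3 or atractylodin 3. Themis and the cholangiocyte markers that fell were thus lower beside the GTPases, whereas the summed T and NK cell levels of the groups overlapped. The other tested T and NK cell markers did not pass, Ccl5 at -1.13 ± 0.45 (adjusted p = 0.145) and Cd3g at 0.33 ± 0.77 (adjusted p = 0.852). At an unadjusted p under 0.05, 2 of the 3 tested were lower and 0 higher. The part of these cell types in the levels of the GTPases was not tested.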

How the data were processed

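Per the labels' protocols, Trizol-extracted liver RNA went into Lexogen QuantSeq libraries. As deposited by the authors, each of the 6 libraries has a file of whole-number read counts by gene symbol, without normalization. Bowtie2, bedtools and the build mm10 are named, per the submitters' processing notes. The annotation, the strand setting and how multi-mapping reads were handled are not given in the sources used here, and neither is any use of molecular identifiers, so counting intervals cover counting error only.

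The members and lists were chosen with earlier results of these data known. Each file held 23282 rows, of which 44 repeated a symbol and stayed rows of their own. In edgeR 4.0.16 (R 4.3.3), filterByExpr with a minimum count of 10 left 12505 rows. After TMM scaling they were compared by a quasi-likelihood F-test (robust, no covariates), and p-values were adjusted by Benjamini-Hochberg over all 12505, with a threshold of 0.05. Log2 fold changes carry SE, and means carry the SD of 3 libraries. Profiles used log2 CPM with a prior count of 2. The biological coefficient of variation was 15.0%, and no pair of libraries had a chi-square per degree of freedom under 2.75, so none was taken for a copy. The alternatives tried were another tool (DESeq2 1.42.0), other scalings (RLE, total counts), other filters (none, or mean CPM at or over 5), a block for replicate number, and omission of each library in turn. On simulated counts of 12311 genes drawn for this comparison, the fit found 69 of 100 2-fold changes and 16 of 100 1.5-fold changes, with 6 false among 91 calls. The simulation gave every gene the same dispersion, so these rates do not cover genes that vary more.

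The text names all 10 members, the tested other GTPases, Irf1, Ifng and the receptor genes, up to 3 called genes of each other list (or that with the smallest p), the 8 nearest profiles and the most abundant gene of each marker list. A few genes that this rule takes in are not reported here. Positions and 3′ ends are from GENCODE M21, promoters from RefSeq on GRCm38.p6. Protein sequences were not used here.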

Additional observations from a re-analysis of the deposited data

How the results depend on the processing

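The direction of all 10 members held in every alternative in which they could be tested, and 115 of 116 member values stayed within the SD of the libraries, the exception being Gbp9 without atractylodin 3. Their median log2 fold change was -0.50 at a mean CPM of at least 5, where 6 members were left, and -0.83 to -0.56 when each library was left out, with 1 to 6 of the 10 called lower. The other GTPases called lower numbered 1 in DESeq2, 0 at a mean CPM of at least 5 and 0 to 4 with a library left out. Over all pathway lists together, 14 of 87 tested genes fell and 3 rose. The 14 became 9 at a mean CPM of at least 5 and 5 to 14 with a library left out, and the 3 became 1 under total counts and 1 to 3 with a library left out. Over all rows, 416 lower and 490 higher calls became 707 and 312 under total counts, which moved the median of all rows to -0.09, and with a library left out 906 calls became 467 to 751 (215 to 362 lower, 236 to 400 higher). Of 1021 settings of pathway genes, 55 lost and 14 gained the call and none changed direction among called genes. Same-numbered libraries did not deviate together (correlations -0.03, -0.09 and 0.02), so the replicate numbers were not read as a pairing; with them as a block, 1 other GTPase fell, 1 pathway gene rose, and 3 members met the call, without Irgm1. The cause of these shifts was not tested, beyond the fewer rows or libraries that some settings leave. Depth limits Gbp8 and Gbp9, which rest on 2 and 3 counts in vehicle 1.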
